A study of Homo sapiens with 12 samples.

Results

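The aryl hydrocarbon receptor genes described here are 7: the receptor AHR, its partners ARNT and ARNT2, its repressor AHRR, and the target genes CYP1A1, CYP1B1 and TIPARP. They were taken by gene symbol from a table of 22498 gene identifiers, and each symbol had 1 identifier. The set was chosen by known roles with results of these data in view, selected on the lower level of AHR target genes when ferrostatin-1 was added to doxorubicin. The values of that comparison, and of both compounds against control, which uses the same treated libraries, are therefore given for the 7 genes as a description with no test. Only doxorubicin against control was tested for them, and it shares its doxorubicin libraries with the comparison that chose them.

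RNA was sequenced from RPE1 cells, a human retinal pigment epithelial line labelled wild type, in 12 libraries. The 4 control libraries came from cells given the solvent DMSO. Another 4 came from cells given 50 nM doxorubicin, an anthracycline that poisons topoisomerase II, for 72 h. The last 4 came from cells given 50 nM doxorubicin with 5 µM ferrostatin-1, a radical-trapping aromatic amine that blocks ferroptosis, with ferrostatin-1 renewed at 48 h of the 72 h. All groups are of 1 cell line, and no group received ferrostatin-1 alone. Library totals were 17523920 to 19650696 counts in control, 17980433 to 20607019 with doxorubicin and 20243458 to 24879198 with both compounds. The pigment epithelium regulators MITF (43.8 to 55.1 CPM) and OTX2 (10.5 to 18.7 CPM) were present in every library. Of 12 pigment epithelium markers looked at, 11 had an entry and only 6 had enough counts to be tested. RLBP1, TYR, TYRP1, DCT and TTR had at most 4, 1, 5, 3 and 1 counts. Among epithelial and line markers, KRT8 (313 to 644 CPM), KRT18 (234 to 530 CPM) and VIM (5744 to 7789 CPM) were present. EPCAM and CDH1 had at most 1 and 3 counts. The summed level of 5 neuronal marker genes, led by TUBB3, was 438 to 495 CPM in control, 529 to 556 CPM with doxorubicin and 623 to 678 CPM with both compounds, while the neuronal marker RBFOX3 had at most 11 counts. That of 3 immune markers, nearly all CD68, was 60.5 to 69.5, 70.6 to 77.6 and 76.3 to 87.5 CPM in the same order, with at most 12 counts of PTPRC. Of 4 endothelial markers it was 3.86 to 5.31, 1.88 to 2.81 and 1.60 to 2.97 CPM, with at most 5 counts of PECAM1. The part of these markers in the results was not tested.

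AHR is a basic helix-loop-helix PAS transcription factor that waits in the cytosol, bound to HSP90 and cochaperones such as p23. Ligands such as dioxins, polycyclic aromatic compounds and tryptophan metabolites send it to the nucleus, where it pairs with ARNT and binds a short DNA element, the xenobiotic response element. It switches on the cytochromes P450 of family 1 together with its own brakes: AHRR, which competes with it for ARNT, and TIPARP, which ADP-ribosylates it. In mice, loss of the receptor is followed by damage to the retinal pigment epithelium.

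The core letters of that element, GCGTG on either strand (CACGC when read on the other), were searched in the 250 bases before RefSeq gene starts (GRCh38.p14). Of 35116 such windows, 32.2% held at least 1 core and 4.52% held the longer TNGCGTG on either strand. Among the 16148 windows with at least 60% G or C, 49.2% held the core. Shown are the windows of 2 target genes among the 7 and of 3 of the 5 other target genes that fell with ferrostatin-1, chosen to show windows with 3, 1 and 0 cores, in lower case with the cores in capitals and 5′ to 3′ on the gene's strand. In the STC2 window the first 2 of its 3 cores share bases.
TIPARP (chr3:156674340-156674589, plus strand): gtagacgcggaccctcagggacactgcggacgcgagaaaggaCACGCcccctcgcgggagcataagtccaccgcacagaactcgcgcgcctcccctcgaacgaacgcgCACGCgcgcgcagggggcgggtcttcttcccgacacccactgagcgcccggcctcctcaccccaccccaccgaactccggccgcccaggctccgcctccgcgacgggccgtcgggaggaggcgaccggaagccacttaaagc
AHRR (chr5:321464-321713, plus strand): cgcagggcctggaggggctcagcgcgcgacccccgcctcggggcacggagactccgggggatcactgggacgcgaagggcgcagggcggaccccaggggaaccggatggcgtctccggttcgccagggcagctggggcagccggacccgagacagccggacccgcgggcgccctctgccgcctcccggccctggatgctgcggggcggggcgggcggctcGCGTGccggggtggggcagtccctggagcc
STC2 (chr5:173328415-173328664, minus strand): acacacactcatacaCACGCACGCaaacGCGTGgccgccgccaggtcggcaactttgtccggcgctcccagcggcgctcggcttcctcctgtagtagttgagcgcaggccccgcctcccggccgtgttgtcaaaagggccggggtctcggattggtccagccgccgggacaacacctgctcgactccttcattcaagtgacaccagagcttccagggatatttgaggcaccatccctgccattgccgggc
SLC7A5 (chr16:87869508-87869757, minus strand): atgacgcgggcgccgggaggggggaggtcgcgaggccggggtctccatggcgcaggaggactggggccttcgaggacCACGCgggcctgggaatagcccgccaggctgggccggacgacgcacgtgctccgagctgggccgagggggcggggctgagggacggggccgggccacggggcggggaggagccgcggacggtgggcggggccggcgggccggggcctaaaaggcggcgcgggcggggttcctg
SERPINB2 (chr18:63887455-63887704, plus strand): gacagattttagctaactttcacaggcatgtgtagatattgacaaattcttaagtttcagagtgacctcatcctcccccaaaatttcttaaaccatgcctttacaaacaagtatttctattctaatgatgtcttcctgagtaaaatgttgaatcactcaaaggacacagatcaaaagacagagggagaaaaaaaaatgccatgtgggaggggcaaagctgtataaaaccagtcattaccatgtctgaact

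TIPARP has 2 cores before its first listed start, and AHRR has 1, which is also a TNGCGTG match 30 bases before the start. The second AHRR start has 2 cores and the other TIPARP starts have 0. CYP1A1 has 1 core, 57 bases before its start, and the AHR and ARNT windows have 0. CYP1B1 and ARNT2 had no entry. Of the 5 other target genes that fell, STC2, SLC7A5 and NFE2L2 have a core and SERPINB2 and IL1B have 0 in this window, which says only that these letters are not within it. Over all 12 tested other target genes, 5 have a core before at least 1 listed start. The shares given above, 32.2% of all windows and 49.2% of G- and C-rich windows, are per window and not per gene. A gene with several starts has more chances to hold a core, so the figures are not like for like. Holding a core is not read as a mark of these genes. A match is a description of the letters and not a binding site.

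**Figure D1:**
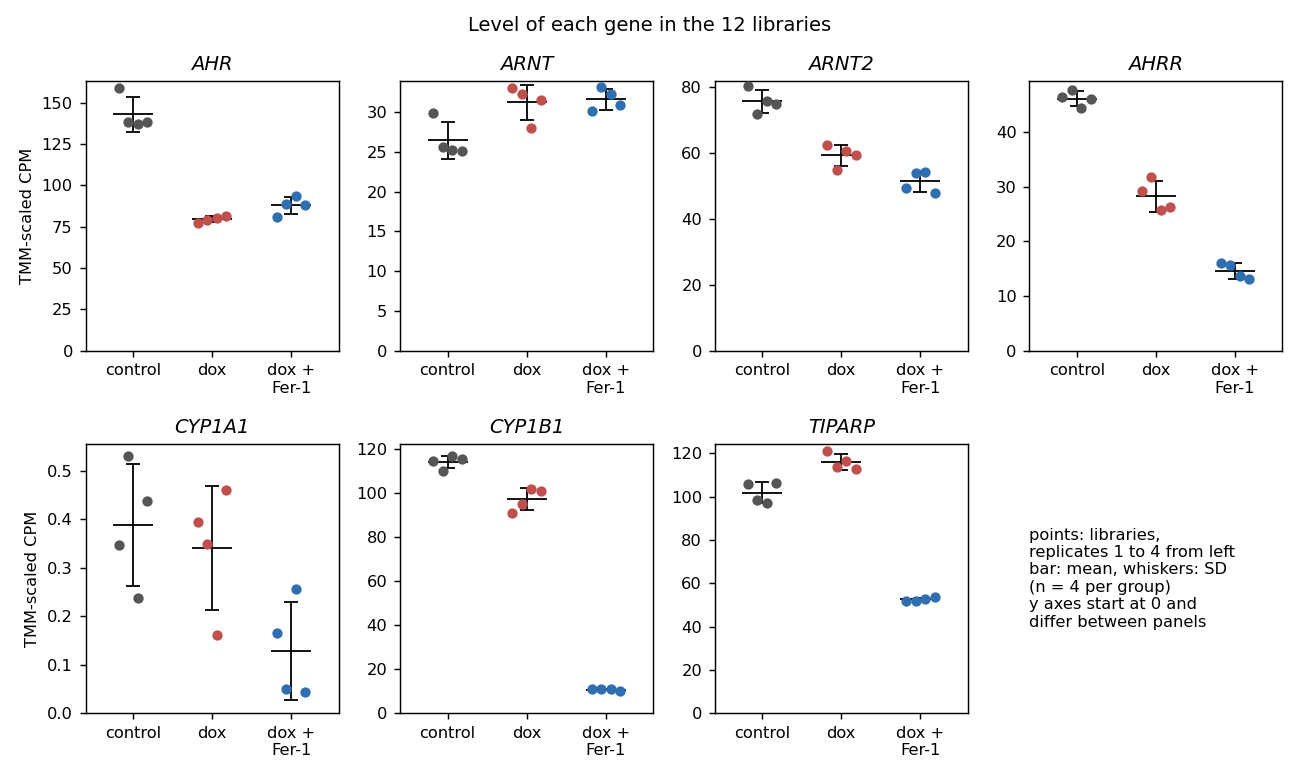
TMM-scaled CPM of each of the 7 genes in every library (points), with the mean and SD of each group of 4; y axes start at 0 and differ between genes. CYP1B1 stands at 10.2 to 11.1 CPM in the 4 libraries with both compounds and at 91.1 to 117 CPM in the other 8.

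The receptor's own transcript was lower after doxorubicin. AHR (ENSG00000106546.14, chromosome 7 from 16916359 to 17346152, GRCh38) stood at 159, 138, 137 and 138 CPM in control replicates 1 to 4. These values are CPM, counts relative to the library's total after TMM scaling, which corrects for a few abundant genes taking up a library. AHR was at 77.0, 79.2, 79.9 and 81.7 CPM with doxorubicin and at 80.8, 88.7, 93.6 and 88.3 CPM with both compounds. Every control library lay above every treated one, and the 2 treated groups overlapped. AHR fell with doxorubicin by 0.85 ± 0.056 on the log2 scale (standard error, n = 4 per group, edgeR adjusted p = 5.36e-09), and by 0.80 without control replicate 1, its highest library. Adding ferrostatin-1 left it 0.14 ± 0.057 higher, 111% of the doxorubicin mean. RNA of all cells in a dish was read together, so fewer cells with a transcript and less transcript per cell cannot be told apart here or below.

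In all, 6 of the 7 genes had enough counts to be tested, with at least 212 counts in every library. All 6 passed in doxorubicin against control, where 64.0% of the 13803 tested genes did, so passing is no mark of these genes. The 4 that fell were AHR, ARNT2, AHRR and CYP1B1 (31.8% of all tested genes fell), and the 2 that rose were ARNT and TIPARP (32.2% rose). In scaled CPM, 5 of the 6 had groups that did not overlap, against 58.7% of all tested genes. Scaling by library totals alone moved the all-gene median log2 fold change from -0.01 to -0.15, and ARNT and TIPARP were then not called (log2 fold changes of 0.09 and 0.04, edgeR adjusted p = 0.258 and 0.384).

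The partners went opposite ways. ARNT (chromosome 1 from 150809705 to 150876768), the general partner of AHR and of the hypoxia factors, was at 29.8, 25.6, 25.2 and 25.1 CPM in control. It was at 33.1, 32.2, 28.0 and 31.5 CPM with doxorubicin and at 30.2, 33.1, 32.2 and 30.8 CPM with both compounds. Control replicate 1 lay within the doxorubicin range and the other control libraries lay below it. ARNT rose with doxorubicin by 0.24 ± 0.069 (edgeR adjusted p = 0.00700). With ferrostatin-1 added, its mean differed from that with doxorubicin alone by 0.02 ± 0.068.

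ARNT2 (chromosome 15 from 80404350 to 80597937), a close relative of ARNT best known from neurons, was at 80.2, 71.9, 75.6 and 74.8 CPM in control. It was at 62.2, 54.8, 60.6 and 59.4 CPM with doxorubicin and at 49.2, 54.0, 54.1 and 47.9 CPM with both compounds. The 3 groups did not overlap, in the order control, doxorubicin, both compounds. ARNT2 fell with doxorubicin by 0.35 ± 0.056 (edgeR adjusted p = 5.94e-05), and adding ferrostatin-1 left it lower by a further 0.21 ± 0.057 (a log2 fold change of -0.21). Reads that fit both ARNT and ARNT2 could have been divided between them in a way the table does not show.

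CYP1B1, CYP1A1 and TIPARP are direct target genes, as is the repressor AHRR, which is described after them. CYP1B1 (ENSG00000138061.12, chromosome 2 from 38066973 to 38109902), which oxidises oestrogens and polycyclic aromatic compounds, was at 114, 110, 117 and 115 CPM in control. With doxorubicin it was at 91.1, 95.2, 102 and 101 CPM, and with both compounds at 11.1, 11.1, 10.9 and 10.2 CPM. The level with both compounds was 11.1% of that with doxorubicin and 9.48% of that in control. CYP1B1 fell with doxorubicin by 0.23 ± 0.044 (edgeR adjusted p = 0.000364), while the log2 fold change of both compounds against doxorubicin was -3.17 ± 0.053. The libraries with both compounds spread little, with an SD of 3.88% of their mean. RMDN2 on the opposite strand shares 96 annotated exon bases with CYP1B1 and had 36 to 79 counts per library, against 212 to 2450 for CYP1B1.

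TIPARP (chromosome 3 from 156673235 to 156706770) was at 106, 98.5, 97.1 and 106 CPM in control. It was at 121, 114, 116 and 113 CPM with doxorubicin and at 52.1, 52.0, 52.6 and 53.8 CPM with both compounds. The 3 groups did not overlap, and the order was doxorubicin, control, both compounds. TIPARP rose with doxorubicin by 0.19 ± 0.042 (edgeR adjusted p = 0.00124), and its log2 fold change of both compounds against doxorubicin was -1.14 ± 0.043. With both compounds it stood at 51.6% of the control mean.

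CYP1A1 (chromosome 15 from 74719542 to 74725610), the classical inducible target of the receptor in many cell types, was barely detected and did not pass the filter on low counts. It had 7, 10, 5 and 9 counts in the control libraries, 7, 7, 3 and 8 with doxorubicin and 4, 1, 5 and 1 with both compounds. These sum to 31, 25 and 11 counts, and the libraries of the 3 groups overlapped. The limit that a count of 0 allows, 3 counts, was 0.124 to 0.172 CPM, and 2 libraries with both compounds lay under it. Doxorubicin and control did not differ detectably at this depth (0.341 ± 0.128 against 0.389 ± 0.125 CPM, SD, n = 4, exact two-sided permutation p = 0.6, where the smallest possible is 0.0286).

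AHRR (ENSG00000063438.20, chromosome 5 from 304176 to 438291) stepped down from group to group. It was at 46.4, 47.7, 44.4 and 46.1 CPM in control, at 29.2, 31.9, 25.7 and 26.4 CPM with doxorubicin and at 16.1, 15.6, 13.7 and 13.1 CPM with both compounds. No library of one group reached the range of another. AHRR fell with doxorubicin by 0.71 ± 0.075 (edgeR adjusted p = 1.09e-06), and the log2 fold change of both compounds against doxorubicin was -0.95 ± 0.080. With both compounds it stood at 31.7% of the control mean. Its annotated exons share 244 bases with PDCD6 on the same strand, a calcium-binding protein gene with 1014 to 1534 counts per library. PDCD6 changed by 0.26 ± 0.049 with doxorubicin (edgeR adjusted p = 0.000288) and did not pass with ferrostatin-1 added (-0.11 ± 0.049, edgeR adjusted p = 0.297).

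**Figure D2:**
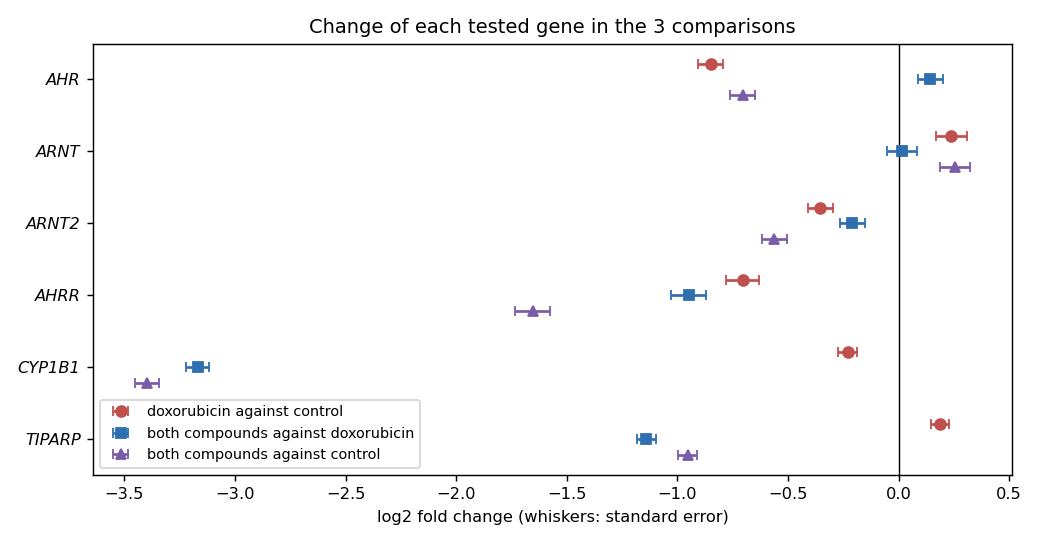
Log2 fold change with its standard error for the 6 tested genes in the 3 comparisons, which share groups of 4 libraries. CYP1B1 lies at -0.23 for doxorubicin against control and at -3.17 for both compounds against doxorubicin, while AHR lies at -0.85 and 0.14.

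In both compounds against doxorubicin, the groups did not overlap for 4 of the 6 tested genes (ARNT2, AHRR, CYP1B1 and TIPARP, all lower), beside 10.9% of all tested genes. In the same comparison 5.01% of all tested genes were called, 2.16% higher and 2.85% lower. This is the comparison that chose the genes, and nothing is read from that count. In both compounds against control, log2 fold changes ran from -3.40 ± 0.053 for CYP1B1 to 0.26 ± 0.068 for ARNT, with 64.3% of all tested genes called, 32.0% higher and 32.3% lower. In that comparison all 6 genes had groups that did not overlap, 5 lower and ARNT higher, beside 57.7% of all tested genes.

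Levels of different genes were compared per kilobase of annotated exon, on the scale of CPM per kb. In control, TIPARP (20.2 ± 0.951, SD, n = 4), CYP1B1 (19.0 ± 0.485) and AHR (17.7 ± 1.31) were the most abundant, and each overlapped the next within 1 SD. ARNT2 followed at 9.77 ± 0.441, AHRR at 6.01 ± 0.173, ARNT at 4.06 ± 0.351 and CYP1A1 at 0.113 ± 0.0365. With doxorubicin, the order was TIPARP at 23.0 ± 0.720, CYP1B1 at 16.2 ± 0.844, AHR at 9.83 ± 0.238 and ARNT2 at 7.65 ± 0.414. With both compounds, AHR (10.9 ± 0.653) and TIPARP (10.4 ± 0.168) led and overlapped within 1 SD. CYP1B1, at 1.80 ± 0.0697, then lay beside AHRR at 1.91 ± 0.193, below ARNT2 (6.63 ± 0.418) and ARNT (4.85 ± 0.202). The annotation release behind the counts is not given in the sources used here, so these per-length levels rest on another release's exon lengths.

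The other genes of the pathway were looked at in 5 lists holding 64 genes, of which 47 were tested. In doxorubicin against control 34 of the 47 (72.3%) passed, 18 higher and 16 lower, beside 64.0% of all tested genes. With ferrostatin-1 added to doxorubicin, 9 of the 47 (19.1%) passed, 1 higher and 8 lower, beside 5.01% of all tested genes. The lists were chosen with results of these data known, and SLC7A5, NFE2L2 and NQO1 had stood in an earlier list of AHR targets that was lower in this comparison, so its target genes are not independent evidence.

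Of the receptor's carriers, some were called with doxorubicin and 0 with ferrostatin-1 added. Of 7 tested genes of the receptor complex and its turnover, 3 rose and 2 fell with doxorubicin, 71.4% called beside 64.0% of all tested genes (median log2 fold change 0.04, against -0.01). PTGES3, the cochaperone p23, fell from 333 ± 10.1 to 172 ± 10.1 CPM, and HSP90AA1, the inducible HSP90 chaperone, from 1501 ± 45.1 to 1224 ± 53.5 CPM. SRC, a kinase held in the complex, and STUB1, a ubiquitin ligase for chaperone clients, rose by 0.43 and 0.39. With ferrostatin-1 added, edgeR called 0 of the 7, beside 5.01% of all tested genes. An unadjusted p below 0.05 was reached by 0, DESeq2 called 0, and the median was 0.00. At that share a list this short can hold 0 calls, so nothing is read from the count.

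Of 12 coregulators, 4 rose and 5 fell with doxorubicin (75% called beside 64.0% of all tested genes, median -0.11), among them the chromatin remodeller SMARCA4, from 221 ± 1.35 to 169.7 ± 7.80 CPM, and ANKRA2, an adaptor of AHRR, from 6.78 ± 0.895 to 10.1 ± 0.575 CPM. With ferrostatin-1 added, edgeR called 0 of the 12 (median 0.01), beside 5.01% of all tested genes. An unadjusted p below 0.05 was reached by 1, and DESeq2 called 0. Enzymes that make tryptophan-derived ligands were mostly low, and IDO1 and TDO2, which open the tryptophan ring, had at most 20 and 18 counts in any library. Of the 7 tested, AFMID rose and KYAT1 fell with doxorubicin and 5 did not pass (28.6% called beside 64.0% of all tested genes, median -0.12). The KYAT1 call was lost in 5 of 18 alternatives (edgeR adjusted p = 0.0735 with no filter, 0.0537 and 0.0670 without control replicates 1 and 2, 0.0646 and 0.0898 without doxorubicin replicates 2 and 3), while IDO1 and TDO2 were called only without control replicate 1 (edgeR adjusted p = 0.0168 and 0.0263). AADAT was called with library totals alone and after thinning (edgeR adjusted p = 0.00493 and 0.0334). KYAT3 was called with library totals alone (edgeR adjusted p = 0.0204). With ferrostatin-1 added, edgeR called 0 of the 7 (median -0.04), beside 5.01% of all tested genes. An unadjusted p below 0.05 was reached by 1 (KYAT3), and DESeq2 called 0. Lists as short as those of the coregulators and ligand enzymes can hold 0 calls at that share, so nothing is read from these counts.

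**Figure D3:**
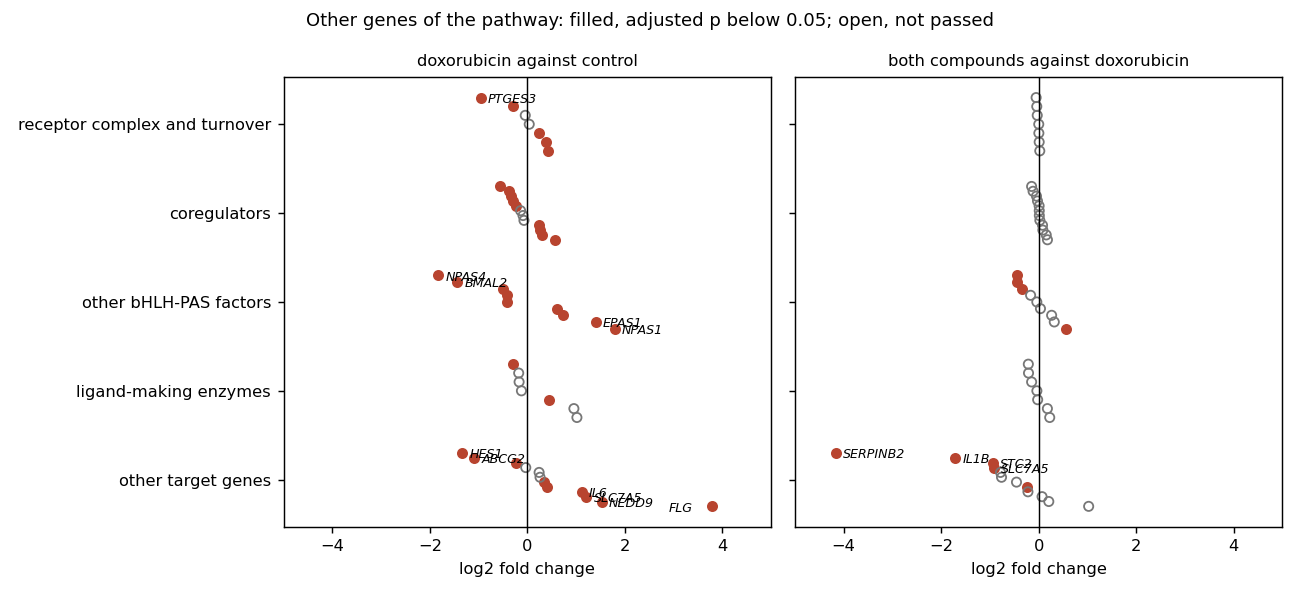
Log2 fold change of each tested gene of the 5 pathway lists for doxorubicin against control (left) and both compounds against doxorubicin (right), filled where the adjusted p is below 0.05. On the right, the filled points are 5 other target genes and 4 other bHLH-PAS factors; the position of FLG on the left depends on the prior count, since it had 0 to 3 counts per control library.

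Among other target genes, 12 of 22 were tested, and 5 fell and 0 rose with ferrostatin-1 added, beside 2.85% of all tested genes lower and 2.16% higher (median log2 fold change -0.61, against 0.00). The list was chosen with results of these data known, so nothing is read from this count or median. By DESeq2 6 of the 12 were called, with IL6, also lower, in addition. An unadjusted p below 0.05 was reached by 9, of which NEDD9 (0.207) and FLG (1.025) were higher and the others lower. SERPINB2, the plasminogen activator inhibitor PAI-2, was at 30.7, 30.0, 32.1 and 28.5 CPM in control and at 27.8, 31.0, 30.3 and 29.5 CPM with doxorubicin. With both compounds it was at 1.37, 1.59, 1.54 and 2.13 CPM, or 30 to 48 counts per library. That was 5.58% of the doxorubicin level (log2 fold change -4.16 ± 0.10, edgeR adjusted p = 3.31e-12). Doxorubicin and control overlapped for it (-0.03 ± 0.076, edgeR adjusted p = 0.734).

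The 4 others that fell were IL1B, STC2, SLC7A5 and NFE2L2. IL1B, an inflammatory cytokine, went from 7.53 ± 1.29 to 2.31 ± 0.469 CPM (-1.71 ± 0.16, edgeR adjusted p = 1.15e-05). STC2, a secreted stanniocalcin, went from 1557 ± 36.5 to 808 ± 56.1 CPM (-0.95 ± 0.047, edgeR adjusted p = 1.34e-08), below its control level of 1224 ± 48.3 CPM. SLC7A5, an importer of large neutral amino acids, ended at 122% of its control level, having risen by 1.21 with doxorubicin. The call for NFE2L2, which codes for NRF2, was lost in 6 of 18 alternatives. Its edgeR adjusted p was 0.0704 with the replicate block, 0.0918 and 0.101 without doxorubicin replicates 1 and 3, and 0.100, 0.0957 and 0.0586 without replicates 1, 2 and 4 of both compounds. NQO1, a quinone reductase and a textbook AHR target, did not pass, at 369 ± 14.6 and 387 ± 19.3 CPM (edgeR adjusted p = 0.650). In doxorubicin against control, 6 of these 12 rose and 3 fell (75% called beside 64.0% of all tested genes, median 0.30), and NEDD9, a docking protein, rose from 10.3 ± 0.368 to 29.6 ± 2.93 CPM. FLG, the skin barrier protein filaggrin, had 0 to 3 counts per control library, 15 to 27 with doxorubicin and 31 to 68 with both compounds.

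**Figure D4:**
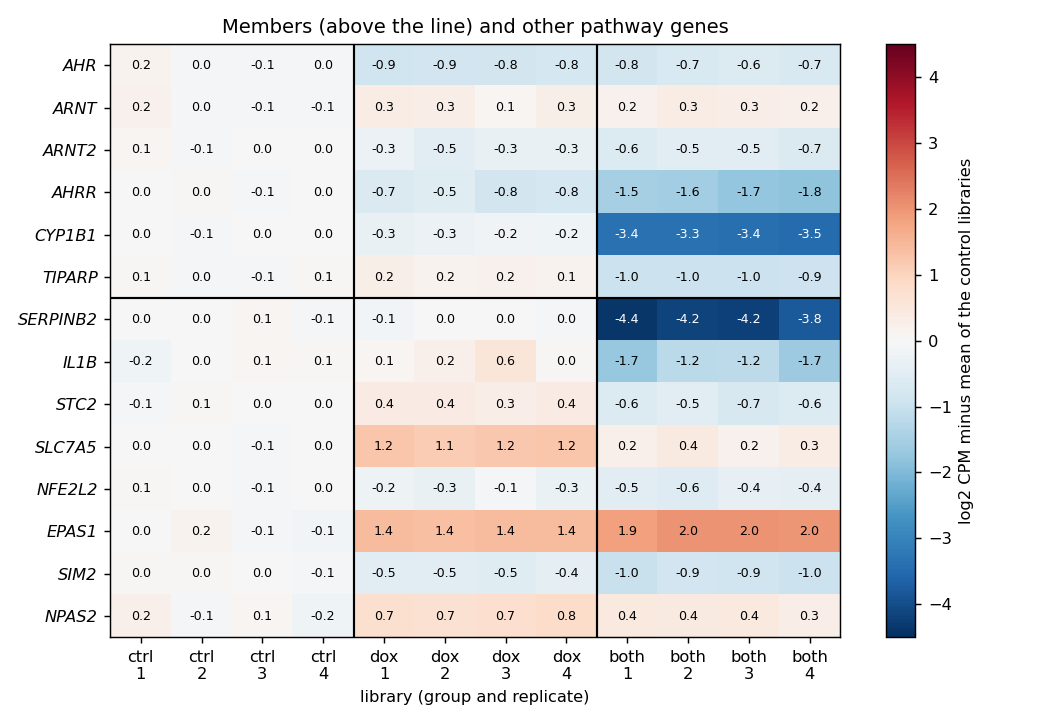
Log2 CPM (prior count 2) minus the mean of the 4 control libraries, for 6 of the 7 genes (CYP1A1 is left out for its low counts) and 8 other pathway genes, in each of the 12 libraries. SERPINB2 and CYP1B1 are near 0 in control and doxorubicin libraries and far below 0 in all 4 libraries with both compounds.

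Other factors of the bHLH-PAS family, several of which share ARNT with AHR, also moved. All 9 tested passed with doxorubicin, 4 higher and 5 lower (median -0.41), beside 64.0% of all tested genes. EPAS1, the hypoxia factor HIF-2alpha, rose from 50.2 ± 4.07 to 133 ± 2.34 CPM, and the clock factor BMAL2 fell from 117 ± 8.45 to 43.1 ± 0.759 CPM. With ferrostatin-1 added, EPAS1 rose further to 197 ± 10.9 CPM (0.57 ± 0.054, edgeR adjusted p = 1.15e-05). SIM2, a partner of ARNT known from Down syndrome research, fell from 33.4 ± 1.07 to 24.5 ± 1.02 CPM (-0.45 ± 0.049, edgeR adjusted p = 4.78e-05). NPAS2 and BMAL1, both clock factors, fell by 0.34 and 0.44 (edgeR adjusted p = 0.0154 and 0.0440), calls lost in 1 and 11 of 18 alternatives. NPAS2 was lost without replicate 4 of both compounds (edgeR adjusted p = 0.0577), and BMAL1 with no filter, after thinning, without control replicate 2 and without any 1 of the 8 treated libraries (highest edgeR adjusted p = 0.132). HIF1A did not pass at 589.7 ± 23.3 and 574 ± 29.6 CPM with doxorubicin and both compounds.

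The genes most like each of the 6 were found by the root mean square difference of log2 CPM from the control mean over the 12 libraries, among 13494 other tested genes with a symbol. For CYP1B1 the nearest were SERPINB2 at 0.47, FAM107A at 0.50 and TMEM156 at 0.56, and 0 genes lay within 0.25. For TIPARP they were PDP1 (0.13), MUSK (0.15) and MPP4 (0.18), with 15 genes within 0.25. For AHRR they were TNFRSF11A (0.18), RUNX2 (0.20) and KLHL5 (0.21), with 5 within 0.25. AHR had 1032 genes within 0.25, led by QKI at 0.06. ARNT2 had 2161, led by ZNF217 at 0.06, and ARNT had 3781, led by VCL at 0.05. The number within 0.25 depends on how far each gene itself moved, also in the comparison that chose the genes. Nothing is therefore read from these numbers. The libraries of a group share their treatment, so these distances describe likeness between group profiles.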

How the data were processed

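The authors' deposited table holds whole-number counts per gene identifier in 12 columns of 3 groups. Per the submitters' processing notes Salmon, DESeq2 and GRCh38 were used, with versions, annotation release and rounding not given in the sources used here. Per the labels' protocols the kit was NEBNext Ultra, and strand-specific counting is not stated.

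Low counts were removed with filterByExpr (minimum count 10, minimum total 15), and the remainder was scaled by TMM and fitted with 1 mean per group over the 12 libraries by edgeR's quasi-likelihood test. Benjamini-Hochberg adjustment covered all 13803 tested genes, and a call is an adjusted p below 0.05. Standard errors are the absolute log2 fold change over the square root of F. The 3 comparisons share groups. Whether the 4 replicates were separate cultures is not stated, so p-values measure only the spread between these libraries. Within groups, chi-square per degree of freedom between libraries was at least 3.73, so none was a copy of another. The model was tested on simulated data.

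The 7 genes and the lists were chosen with earlier results of these data known. Named are the 7, up to 4 genes with the smallest p per list and comparison, and the 3 nearest genes of each; marker and overlapping genes, IL6, NFE2L2, NQO1, TDO2 and, with ferrostatin-1, HIF1A fall outside that rule and were chosen after their values were seen. Positions and exon lengths come from GENCODE 29 (GRCh38) by Ensembl identifier, version suffix ignored, and promoter windows from RefSeq on GRCh38.p14. A side column of 71 symbols holds 0 of the 7 genes and was not used. Software was R 4.3.3, edgeR 4.0.16, limma 3.58.1, DESeq2 1.42.0, Python 3.11.15, pandas 2.3.3 and matplotlib 3.10.9. Alternatives were other size factors, library totals, no filter, DESeq2, thinning to the smallest total, a replicate block and leaving out each library.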

Additional observations from a re-analysis of the deposited data

Results flagged for a closer look

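In control replicate 1, AHR (159 CPM) and ARNT (29.8 CPM) lay far above the other 3 control libraries, with a gap to the nearest of 0.931 and 0.898 of the group's range, past Dixon's critical value for 4 samples. Of 21 gene-and-group combinations looked at, chance flags about 5%. Both flags come from the same library, so they are not independent of each other. Some other pathway genes were also highest in it among the control libraries, such as CREBBP (124 CPM against 91.3 to 99.0 CPM). Others were not, such as SMARCA4 (221 CPM against 219 to 222 CPM). Dixon's rule was not applied to these other genes. Without that library, the log2 fold change of doxorubicin against control was -0.80 for AHR and 0.30 for ARNT, and both remained called (edgeR adjusted p = 3.90e-09 and 0.000793).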

How the results depend on the processing

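In doxorubicin against control, the 6 tested genes kept their direction under all alternatives run. AHR, ARNT2, AHRR and CYP1B1 stayed called throughout (highest adjusted p = 0.00175, for CYP1B1). ARNT and TIPARP were not called with library totals alone, which left 4 of the 6 called, 0 higher and 4 lower, and lowered the share of higher calls over all genes from 50.3% to 36.1%. The same scaling lowered the all-gene median log2 fold change in doxorubicin against control from -0.01 to -0.15. In both compounds against control it lowered that median by a like amount, from -0.02 to -0.17. There the log2 fold changes of the 6 genes moved by more than 1 SD of log2 CPM within groups. CYP1B1 was then at -3.55 and ARNT at 0.10, and the share of higher calls went from 49.8% to 35.0%. In both compounds against doxorubicin, CYP1B1 ranged from -3.20 to -3.14 over the libraries left out and TIPARP from -1.16 to -1.12. ARNT ranged from -0.034 to 0.043 and changed sign, so it has no direction there. Thinning every library to 17523920 counts left 660 genes called in that comparison, against 692, and DESeq2 called 859. Of the 9 pathway calls there, 6 (SERPINB2, IL1B, STC2, SLC7A5, EPAS1 and SIM2) held in all 18 alternatives. The alternative of 1 identifier per symbol was not run, since each of the 7 has only 1.

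The column numbers 1 to 4 pair nothing in the labels. Libraries with the same number correlated at -0.0954 to 0.0534 in their deviations from the group means, and others at -0.146 to 0.154. With the number as a replicate block, 8610, 502 and 8701 genes were called in the 3 comparisons, against 8833, 692 and 8873, with the same 6 of the 7 genes called in the first. Counts of 11 to 31 per group for CYP1A1 limit what can be said of it.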
